A study of Mus musculus with 10 samples.

Results

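Tumour cells of the mouse line 4T1, a mammary carcinoma, recovered from the lungs were compared as cultured sublines with sublines from primary tumours, gene by gene. The comparison took the 3 arrays of lung-derived sublines (L) and the 3 arrays of primary tumour-derived sublines (T) of an experiment with 10 arrays, chosen by their labels alone. The 4 arrays of brain-derived sublines (B) were left out of the fit. It covered 8974 genes, of 9486 with a probe detected anywhere in the experiment.

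All sublines came from 4T1-Luc cells, which carry firefly luciferase, inoculated subcutaneously into immunocompetent BALB/c mice that were female and 6 to 8 weeks old. According to the methods, tumours were digested with enzymes, whereas lungs and brains were pressed through a sieve. Cells grew out in culture and were passaged 3 to 4 times before RNA was taken, with no sorting or drug selection described. Differences between L and T therefore combine the site, the outgrowth and the way each tissue was dissociated, and these cannot be told apart. Each subline had 1 array and was described as isolated independently, but the sources do not say which sublines shared a mouse.

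4T1 is a BALB/c mammary tumour line that spreads spontaneously to the lungs and other organs. Tumour cells that lodge in the lung meet interferons, cytokines and resident immune cells. Interferons act through their receptors and IRF transcription factors on genes for guanylate-binding proteins, antiviral enzymes and antigen presentation. Inflammatory cytokines act through NF-kappaB and STAT3 on chemokines, proteases and acute-phase proteins. Dissemination also calls on matrix proteases, crosslinking enzymes and integrins, which remodel and grip the surrounding matrix.

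The letters upstream of interferon-responsive genes are shown first because genes of that kind stood among those that rose. The sequences are from RefSeq on GRCm38.p6, each 120 bases upstream of an annotated transcript start (-192 to -73 for Gbp2b, -120 to -1 for the others), read 5′ to 3′ on the strand of the gene. Capitals mark matches on either strand to the interferon-stimulated response element GAAA, any pair of bases, GAAA, the letters that interferon-activated complexes with IRF9 read. In Gbp3 a pair of overlapping matches forms 1 run of capitals.
Gbp2: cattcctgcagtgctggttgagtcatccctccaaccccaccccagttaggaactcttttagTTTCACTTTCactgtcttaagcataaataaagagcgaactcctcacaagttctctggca
Gbp2b: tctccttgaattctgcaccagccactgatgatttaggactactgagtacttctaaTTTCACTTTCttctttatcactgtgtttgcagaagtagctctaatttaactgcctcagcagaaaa
Gbp3: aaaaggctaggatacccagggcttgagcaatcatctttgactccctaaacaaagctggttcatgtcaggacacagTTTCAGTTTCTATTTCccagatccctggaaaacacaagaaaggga
Igtp: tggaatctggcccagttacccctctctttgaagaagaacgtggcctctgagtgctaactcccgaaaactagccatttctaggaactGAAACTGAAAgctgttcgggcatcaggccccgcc
Gbp2 (chr3:142620543-142620662), Gbp2b (chr3:142594655-142594774) and Gbp3 (chr3:142559924-142560043) lie on the plus strand of chromosome 3, and Igtp (chr11:58199436-58199555) on that of chromosome 11. RefSeq promoters of 250 bases before to 50 after the start were matched by symbol for 7340 of the 8974 tested genes, and 268 of them (3.65%) held the interferon element. Among the genes called higher in L those of Gbp2, Gbp2b, Gbp3, Piwil4 and Tgfbi did, and Igtp is shown as a gene of the same class that did not pass. A match of this kind describes the letters only.

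The tumour label held on the arrays. Of 15 mammary epithelial markers, 12 were detected by 1 or more of the 6 L and T arrays, at a detection p up to 0.01, among them Cdh1, Krt8, Krt18, Krt14 and Cldn4, whereas Epcam, Ehf and Krt5 were not. Most markers of host cells with a probe were not detected. Of those with a probe, 1 of 20 macrophage markers was detected (Laptm5), 1 of 13 of granulocytes (S100a8), 3 of 15 of lung epithelium (Ager, Aqp5 and Pdpn), 3 of 13 of fibroblasts (Dcn, Fbln1 and Pdgfra), 3 of 11 of smooth muscle and pericytes (Acta2, Des and Mcam), 2 of 13 of lymphocytes and NK cells (Cd8b1 and Prf1), 2 of 5 of mesothelium (Krt19 and Msln), 2 of 14 of endothelium (Egfl7 and Eng), 0 of 8 of adipocytes and 0 of 5 of erythroid cells. Smooth muscle and pericyte markers summed, on the linear scale, to 348 to 1172 on T arrays and 689 to 1542 on L arrays, those of lymphocytes to 2312 to 2467 and 2260 to 2489, and those of mesothelium to 2821 to 3457 and 3170 to 3736. Lung epithelial markers summed to 495 to 694 on T arrays and 669 to 705 on L arrays. None of these markers passed the test between L and T, and the part of such cells in the differences was not tested. The defining genes Ptprc, Csf1r, Adgre1, Sftpc, Scgb1a1, Col1a1, Col3a1 and Pecam1 were not detected on any of the 6. In bulk RNA, fewer cells of a type and less RNA per cell cannot be told apart. The arrays resembled each other closely, with a Pearson correlation over the tested genes of 0.984 to 0.985 between L arrays, 0.979 to 0.983 between T arrays and 0.962 to 0.985 between L and T arrays. The lowest of these with L arrays were those of T1, at 0.9621 to 0.9712. T2 had 0.9795 to 0.9845 with the L arrays, 0.9792 with T1 and 0.9834 with T3, so the T arrays did not form a group apart. The number of detected probes was 14218 to 14635 on T arrays and 14764 to 14938 on L arrays.

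Most of the called differences between L and T ran in 1 direction. The moderated test of limma called 45 of 8974 genes (0.501%) at a Benjamini-Hochberg adjusted p under 0.05, of which 42 were higher in L (0.468%) and 3 lower (0.0334%). On the authors' processed values the split was 43 higher and 10 lower, and it was 138 higher and 31 lower without background correction. With all 10 arrays in 1 limma fit 0 genes were called and 872 had an unadjusted p under 0.05, and when dim probes were kept 0 were called and 2049 did. The called differences were 0.78 to 3.29 in size on the log2 scale, with a median of 1.24, and 38 of the 45 were at least 2-fold. Over all tested genes, in contrast, the median difference was -0.01, and 5% of genes lay below -0.45 and 5% above 0.58. At the threshold of the methods, an unadjusted p under 0.001, 110 genes differed (1.23%), 90 higher and 20 lower. At an unadjusted p under 0.05, 744 were higher (8.29%) and 583 lower (6.5%). The 3 L arrays all lay above the 3 T arrays for 920 genes (10.3%) and all below for 892 (9.94%), so the excess of higher genes stood among the strongest differences.

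**Figure D1:**
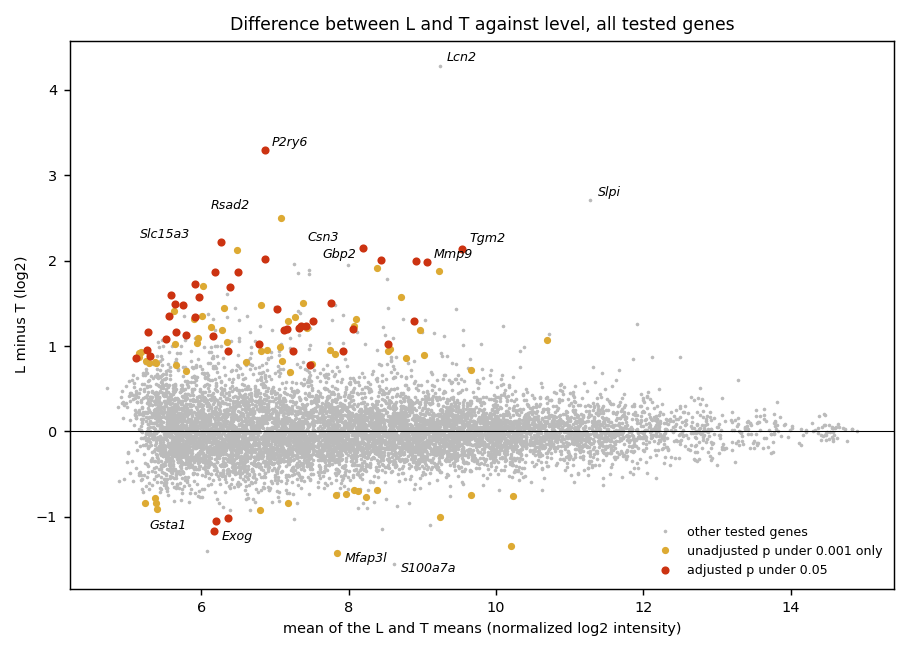
Difference between L and T (log2, vertical axis) against the mean of the L and T means (normalized log2 intensity, horizontal axis) for the 8974 tested genes. Red points are the 45 genes with an adjusted p under 0.05 and yellow points those with an unadjusted p under 0.001 only, and most of both lie above 0. Lcn2 and Slpi have large differences but did not pass.

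For 16 of the 42 genes no T array detected the probe used, and for 13 of them no T array detected any probe of the gene. The probes used for these 16 passed the detection filter through L arrays alone, whereas 0 called genes went undetected in L. For 11 of the 13 the fold is given as a lower bound, the L mean against T arrays raised to their dimmest detected probe, and for Tgfbi and Arl11 this bound was under 1 and no fold is given. The adjusted p beside such a bound is that of the log2 difference, and the bound itself was not tested. Of the 45 called genes 17 had another detected probe, 20 probes in all, of which 18 differed in the same direction and 14 of these without overlap. Over all tested genes the L arrays all lay above the T arrays in 10.3% and all below in 9.94%. Only a further probe of Csn3 (adjusted p = 0.02) and 1 of Aldh3b1 (adjusted p = 0.0365) passed limma over all probes. These genes were chosen for differing on the same RNA, so the counts are a description. The T arrays were not interchangeable for the genes that rose. T1 was the lowest of the 3 in 28 of the 42 genes and T2 the highest in 26, against 33.7% and 32.3% of all tested genes. Among L arrays L1 was the highest in 28 and L2 the lowest in 27, against 33.8% and 34.5% of all genes.

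The calls depended on single sublines. Of the 45 genes, 10, 41 and 5 were still called without T1, T2 or T3, and 0, 22 and 1 without L1, L2 or L3. The total called was then 11, 129, 9, 0, 27 and 1, and without L1 the lowest adjusted p was 0.064 and 904 genes had an unadjusted p under 0.05. Every one of the 45 kept its direction in each of these fits that tested it. The random variance model, which the methods used, passed the same 45. Close to the threshold, 8 genes shared an adjusted p of 0.04997, and the next in order, Capn15 and Ppm1h, named for that place alone, had 0.0549 and 0.0599.

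**Figure D2:**
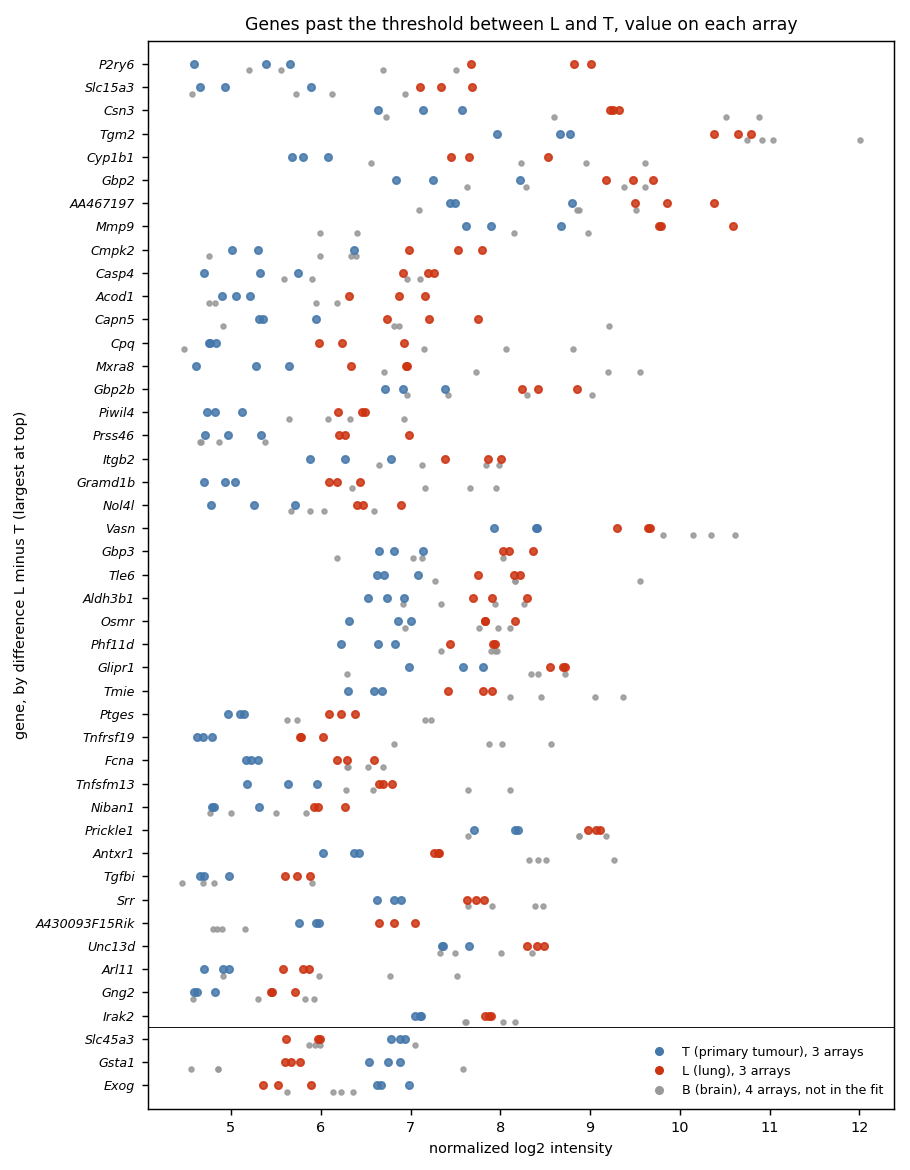
Normalized log2 intensity (horizontal axis) of the 45 genes on each T array (blue), L array (red) and B array (grey, not in the fit), 1 row per gene, ordered by the difference between L and T. Red and blue points do not overlap in any row, and P2ry6, at the top, has the widest gap. The 3 genes under the line were lower in L.

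Guanylate-binding proteins, large GTPases that interferon induces and that attack pathogen vacuoles, rose in the lung sublines. On T1, T2 and T3, Gbp2 read 6.84, 8.22 and 7.26, and on L1, L2 and L3 it read 9.70, 9.48 and 9.17. All 3 L arrays lay above T2, the highest T array, and Gbp2 rose by 2.01 (SE 0.31, adjusted p = 0.0314) from limma. For Gbp2b the log2 values were 6.72, 7.38 and 6.92 on the T arrays and 8.86, 8.24 and 8.42 on the L arrays, each in the order 1 to 3. The level of Gbp3 was 6.65, 7.14 and 6.82 in T1 to T3 and 8.37, 8.09 and 8.03 in L1 to L3. Gbp2b rose by 1.50 (SE 0.22, adjusted p = 0.0272) and Gbp3 by 1.29 (SE 0.18, adjusted p = 0.021). A further probe of Gbp3 had a difference of 1.17 with no overlap (adjusted p = 0.0588 over all probes). These genes are close copies that lie side by side, and whether a probe also reads a neighbour was not tested. The calls were lost without T1, T3, L1, L2 or L3 (adjusted p = 0.0784 to 0.15) for Gbp2, lost without T1, T3, L1 or L3 (adjusted p = 0.08 to 0.122) for Gbp2b and lost without T1, T3, L1 or L3 (adjusted p = 0.0645 to 0.114) for Gbp3.

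The immunity-related GTPases moved less evenly. Igtp read 5.58, 6.66 and 5.98 across T1 to T3, and 7.49, 7.24 and 7.92 across L1 to L3. The groups did not overlap, but the difference of 1.48 (adjusted p = 0.0614) did not pass. Irgm2 had normalized log2 values of 5.85, 7.36 and 6.74 on T1, T2 and T3 and of 8.18, 7.30 and 7.75 on L1, L2 and L3. Here T2 lay above L2, and the difference was 1.09 (adjusted p = 0.205). Ifi47 had a difference of 0.94 (adjusted p = 0.0805). Of 8 measured interferon-induced GTPases, a list without Gbp2b, 2 rose (Gbp2 and Gbp3) and 6 did not pass, with a median difference of 1.02 against -0.01 over all genes. At an unadjusted p under 0.05, 6 of the 8 were higher, against 8.29% of all tested genes.

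Among antiviral genes the neighbours Cmpk2, a mitochondrial nucleotide kinase, and Rsad2, the enzyme viperin, had the largest differences. On T1, T2 and T3, Cmpk2 read 5.31, 6.37 and 5.01, and on L1, L2 and L3 it read 7.79, 6.98 and 7.53. Cmpk2 rose by 1.87 (SE 0.33, adjusted p = 0.04997), and this call was lost without T1, T3, L1, L2 or L3 (adjusted p = 0.0651 to 0.224). For Rsad2 the log2 values were 5.46, 7.09 and 4.94 on the T arrays and 8.66, 7.63 and 8.70 on the L arrays, each in the order 1 to 3. T2 stood well above the other T arrays for both genes, and the difference of Rsad2, 2.50 (adjusted p = 0.0637), did not pass. Of 23 antiviral interferon-stimulated genes, 1 rose, 22 did not pass and 12 were higher at an unadjusted p under 0.05 (8.29% of all genes), with a median of 0.45. Oasl2, of the oligoadenylate synthetase family, had a difference of 1.18 (adjusted p = 0.098), Parp14 of 1.03 (adjusted p = 0.195) and Ifit3 of 1.002 (adjusted p = 0.211).

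Antigen presentation through MHC class I had 0 called genes: none of its 21 measured genes passed, also by the random variance model. Of them, 10 were higher at an unadjusted p under 0.05 and 0 lower, against 8.29% and 6.5% of all genes, with a median of 0.45. The immunoproteasome subunits Psmb8 and Psmb9 had differences of 1.14 (adjusted p = 0.124) and 1.10 (adjusted p = 0.0637), the peptide transporter Tap2 of 0.97 (adjusted p = 0.0888) and the nonclassical class I molecule H2-T23 of 0.97 (adjusted p = 0.0644). The L arrays lay above the T arrays for all 4. Among 26 interferon receptors, sensors and regulators 0 passed and 6 were higher at an unadjusted p under 0.05 (8.29% of all genes), with a median of 0.23. Socs3, a feedback inhibitor of cytokine signalling, had a small difference with little spread, at 8.14, 8.46 and 8.43 on T arrays and 9.20, 9.36 and 9.07 on L arrays (difference 0.86, adjusted p = 0.0609). Usp18, which removes ISG15, had values of 5.63, 7.40 and 6.08 on T arrays and 8.62, 6.71 and 7.35 on L arrays, so that L2 lay below T2. The calls of these lists moved with scaling. Without background correction 4 GTPases, 4 antiviral genes and 5 class I genes were higher, and with median scaling 5, 8 and 4 were. The calls over all 8974 genes rose as well, from 42 higher to 138 without background correction and 190 with median scaling.

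**Figure D3:**
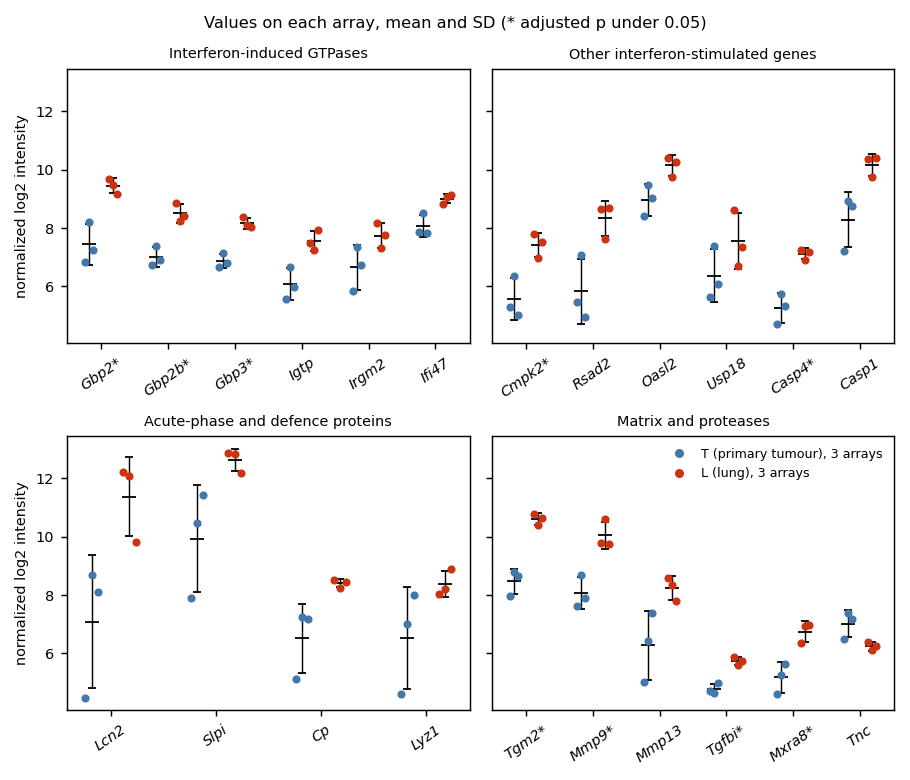
Normalized log2 intensity (vertical axis) of genes of 4 groups on each T array (blue) and L array (red), with the mean (bar) and SD (whiskers) of 3 arrays. A star marks an adjusted p under 0.05. The L points of Gbp2, Gbp2b and Gbp3 lie above all T points, whereas the acute-phase genes have a wide spread among T arrays, with T1 lowest.

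Casp4, the inflammatory caspase that senses bacterial lipopolysaccharide in the cytosol, had values of 4.70, 5.74 and 5.32 on T arrays and 7.26, 6.92 and 7.19 on L arrays. It rose by 1.87 (SE 0.25, adjusted p = 0.0187). This probe was not detected in T, but the other probe of Casp4 was, on 2 T arrays, and it differed by 1.80 without overlap (adjusted p = 0.0531 over all probes). This call was lost without T3, L1 or L3 (adjusted p = 0.0561 to 0.114). Casp1, which matures interleukin-1beta, had values of 7.21, 8.92 and 8.75 on T arrays and 10.36, 9.74 and 10.42 on L arrays. Its groups did not overlap, and the difference of 1.88 (adjusted p = 0.0774) did not pass. Of 24 genes of the Bcl2 family and the caspases Casp4 rose and 23 did not pass, and the median of the list was 0.01. At an unadjusted p under 0.05, 5 of the 24 were higher and 1 lower (8.29% and 6.5% of all genes).

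Osmr, the receptor subunit for oncostatin M, a cytokine of the interleukin-6 family, rose by 1.21 (SE 0.20, adjusted p = 0.042). The level of Osmr was 6.32, 7.001 and 6.86 in T1 to T3 and 7.82, 8.16 and 7.83 in L1 to L3. Irak2, a kinase downstream of interleukin-1 and Toll-like receptors, rose by 0.78 (SE 0.14, adjusted p = 0.04997), with L arrays between 7.83 and 7.90 and T arrays between 7.05 and 7.12. Both groups were tight on this probe, and it was the smallest called difference. The other probe of Irak2, detected on all 6 arrays, spread more widely, with 6.30, 7.12 and 7.01 on T arrays and 7.68, 8.05 and 7.25 on L arrays. It differed by 0.85 without overlap (adjusted p = 0.201 over all probes). Acod1, which makes the metabolite itaconate in activated macrophages, was not detected in T. Acod1 read 5.21, 4.90 and 5.05 across T1 to T3, and 7.16, 6.31 and 6.87 across L1 to L3. Its L level was at least 1.91-fold the T level (adjusted p = 0.0187), with a difference of 0.79 on its other probe (adjusted p = 0.207 over all probes). Ptges, a terminal synthase of prostaglandin E, was at least 1.31-fold higher (adjusted p = 0.0187), with 5.14, 5.10 and 4.97 on T arrays and 6.23, 6.09 and 6.39 on L arrays. Ptgs2, the inducible cyclooxygenase just upstream, had 8.30, 8.005 and 8.29 on T arrays and 7.59, 7.69 and 7.66 on L arrays (difference -0.55, adjusted p = 0.148). The calls were lost without T1, T3, L1, L2 or L3 (adjusted p = 0.0878 to 0.149) for Osmr, lost without any 1 of the 6 arrays (adjusted p = 0.0535 to 0.206) for Irak2, lost without T3, L1 or L3 (adjusted p = 0.0549 to 0.098) for Acod1 and lost without T3, L1 or L3 (adjusted p = 0.0599 to 0.114) for Ptges.

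Of 22 cytokines, colony-stimulating factors and their receptors Osmr rose and 21 did not pass, with a median of 0.27. At an unadjusted p under 0.05, 8 of the 22 were higher and 0 lower (8.29% and 6.5% of all genes). Csf3, the granulocyte colony-stimulating factor, had 7.13, 8.17 and 8.12 on T arrays and 9.45, 9.85 and 8.47 on L arrays (difference 1.45, adjusted p = 0.119), and the alarmin Il33 had 4.64, 5.76 and 5.32 on T arrays and 6.56, 6.16 and 6.23 on L arrays (difference 1.08, adjusted p = 0.109). Both had L arrays above T arrays. Il1a did not separate the groups, since L3 lay below T2 and T3, with 7.12, 9.19 and 8.83 on T arrays and 10.63, 10.74 and 7.68 on L arrays. None of 11 chemokines passed, 3 were higher and 0 lower at an unadjusted p under 0.05, and their median was 0.58. Ccl2, which draws monocytes, had 4.55, 6.79 and 7.80 on T arrays and 8.52, 8.33 and 7.84 on L arrays, with T3 close to L3. Of 23 NF-kappaB subunits and regulators 0 passed, and 5 were higher and 1 lower at an unadjusted p under 0.05. Bcl3, Zc3h12a and Map3k8 had differences of 1.16 (adjusted p = 0.178), 1.02 (adjusted p = 0.142) and 0.99 (adjusted p = 0.117). Of 15 immune ligands and checkpoint genes 0 passed and 6 were higher and 1 lower at an unadjusted p under 0.05, against 8.29% and 6.5% of all genes. The death receptor Fas had 4.72, 6.63 and 5.28 on T arrays and 7.64, 7.21 and 6.60 on L arrays, with L3 just under T2, and Cd40 and Lgals9 had differences of 1.07 (adjusted p = 0.0986) and 0.96 (adjusted p = 0.136).

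Secreted acute-phase and host defence proteins had the largest median of the pathway lists, 1.22 over 10 measured genes, yet 0 of them passed and 6 were higher at an unadjusted p under 0.05 (8.29% of all genes). Lcn2, which captures bacterial iron carriers, had the largest difference of all tested genes. Lcn2 had normalized log2 values of 4.49, 8.68 and 8.11 on T1, T2 and T3 and of 12.23, 12.09 and 9.81 on L1, L2 and L3. It was detected on 2 of the T arrays, not on T1, and its difference was 4.28 (SE 0.99, adjusted p = 0.0975). On T1, T2 and T3, Slpi read 7.89, 10.48 and 11.42, and on L1, L2 and L3 it read 12.87, 12.84 and 12.20. Slpi, a secreted inhibitor of neutrophil proteases, had every L array above every T array, with a difference of 2.71 (adjusted p = 0.125). Ceruloplasmin, Cp, had 5.14, 7.24 and 7.17 on T arrays and 8.53, 8.24 and 8.46 on L arrays, and lysozyme, Lyz1, had 4.60, 7.02 and 8.01 on T arrays and 8.03, 8.21 and 8.89 on L arrays. T1 was the lowest array for these 4 genes. Without T1 the difference of Lcn2 was 2.98 (adjusted p = 0.109) and that of Slpi 1.69 (adjusted p = 0.0898). Lyz1 and Lyz2 are near-identical copies, and which of them the probe reads was not tested. The granulocyte marker S100a8 had a difference of 1.34 (adjusted p = 0.351), and the other 12 granulocyte markers were not detected. The summed level of the 13, on the linear scale, ran from 337 to 421 on T arrays and from 359 to 609 on L arrays, and its part in these differences was not tested.

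**Figure D4:**
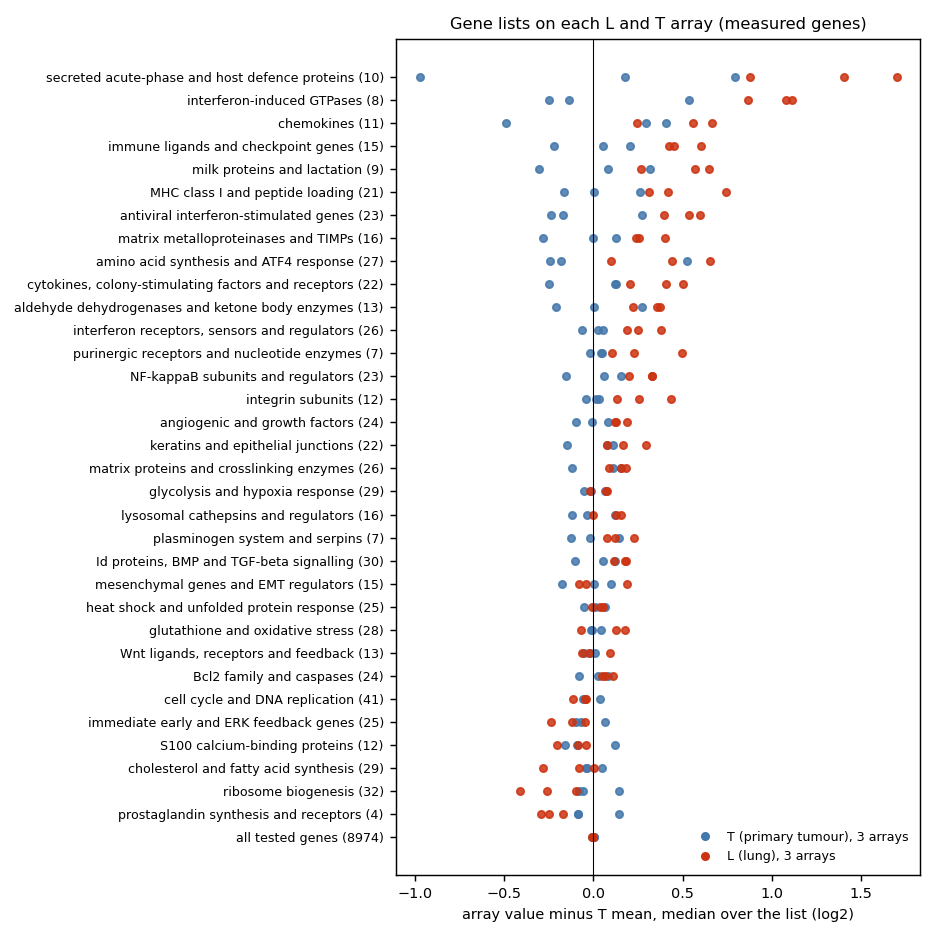
Median over each list's measured genes of the array's value minus the T mean (log2, horizontal axis), for T arrays (blue) and L arrays (red), with the number of measured genes in brackets. Acute-phase proteins and interferon-induced GTPases lie farthest to the right on L arrays, and T1 is the lowest T array in both. Ribosome biogenesis and prostaglandin genes lie to the left.

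The largest called difference was that of P2ry6, a G protein-coupled receptor for uridine diphosphate, which was not detected in T. For P2ry6 the log2 values were 4.59, 5.66 and 5.39 on the T arrays and 9.01, 8.82 and 7.68 on the L arrays, each in the order 1 to 3. P2ry6 in L exceeded T at least 6.31-fold (adjusted p = 0.0116), and the call was lost only without L1 among the 6 fits that leave out an array (adjusted p = 0.064). Of 7 measured purinergic receptors and nucleotide enzymes it alone passed, and the receptor P2ry12 and the ectonucleotidase Nt5e had differences of 0.66 (adjusted p = 0.229) and 0.50 (adjusted p = 0.183). Among these 7, 3 were higher and 0 lower at an unadjusted p under 0.05 (8.29% and 6.5% of all genes). Slc15a3, which carries histidine and peptides out of endolysosomes, was detected on 1 T array. The level of Slc15a3 was 4.65, 5.89 and 4.93 in T1 to T3 and 7.69, 7.10 and 7.34 in L1 to L3. It rose by 2.22 (SE 0.30, adjusted p = 0.0194), a call lost without T3, L1 or L3 (adjusted p = 0.0645 to 0.114). Itgb2, the leukocyte beta2 integrin, rose by 1.44 (SE 0.25, adjusted p = 0.0462), with 5.88, 6.78 and 6.27 on T arrays and 8.01, 7.86 and 7.38 on L arrays. Of the macrophage markers, Itgam, Itgax and Ptprc were not detected on any L or T array. The summed level of the 20 with a probe was 495 to 569 on T arrays and 549 to 618 on L arrays, a sum that includes the background of the 19 not detected. The call of Itgb2 was lost without T1, T3, L1, L2 or L3 (adjusted p = 0.0852 to 0.209). Unc13d, which primes cytotoxic granules for release, rose by 0.94 (SE 0.15, adjusted p = 0.0389), and the call was lost without T1, T3, L1, L2 or L3 (adjusted p = 0.0756 to 0.178). Its other probe, detected on every L and T array, differed by 0.49 without overlap (adjusted p = 0.288 over all probes). Fcna, ficolin A of the lectin complement pathway, was at least 1.42-fold higher (adjusted p = 0.025), and the call was lost without T1, T3, L1 or L3 (adjusted p = 0.0759 to 0.114). Tnfrsf19, a receptor of the tumour necrosis factor family known as TROY, had a difference of 1.16 (SE 0.15, adjusted p = 0.0187), with 4.78, 4.62 and 4.69 on T arrays and 5.78, 5.77 and 6.02 on L arrays. Its lower bound was 1.01-fold, close to no change, and the call was lost without T3, L1 or L3 (adjusted p = 0.0561 to 0.1). Tnfsfm13, a transcript that reads through from Tnfsf12 into Tnfsf13 and shares their sequence, rose by 1.12 (SE 0.20, adjusted p = 0.04997), a call lost without any 1 of the 6 arrays (adjusted p = 0.053 to 0.219).

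Matrix genes that rose were a crosslinker, a gelatinase and a set of adhesion and growth factor-binding proteins. Tgm2, a transglutaminase that crosslinks matrix proteins, rose by 2.14 (SE 0.22, adjusted p = 0.0116). Tgm2 read 7.97, 8.78 and 8.66 across T1 to T3, and 10.79, 10.39 and 10.65 across L1 to L3. The lowest L array stood well above the highest T array, and the call was lost without L1 or L3 (adjusted p = 0.0603 to 0.064). Mmp9, gelatinase B, rose by 1.98 (SE 0.30, adjusted p = 0.0311). Mmp9 had normalized log2 values of 7.62, 8.68 and 7.90 on T1, T2 and T3 and of 9.79, 10.59 and 9.76 on L1, L2 and L3. L2 was the highest and T2 the highest of the tumour arrays, and the call was lost without T1, T3, L1, L2 or L3 (adjusted p = 0.0651 to 0.114). Mmp13, a collagenase, had 5.01, 6.44 and 7.37 on T arrays and 8.57, 8.36 and 7.79 on L arrays and a difference of 1.96 (adjusted p = 0.112). Of 16 matrix metalloproteinases and TIMPs Mmp9 rose and 15 did not pass, with 6 higher and 1 lower at an unadjusted p under 0.05 (8.29% and 6.5% of all genes) and a median of 0.42. The inhibitor Timp3 had a difference of 0.81 (adjusted p = 0.147).

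Of 26 matrix proteins and crosslinking enzymes Tgm2 rose and 25 did not pass, and their median of 0.13 was small. In this list 2 were higher and 1 lower at an unadjusted p under 0.05 (8.29% and 6.5% of all genes). Col5a1 had a difference of 0.89 (adjusted p = 0.127), and Tnc, tenascin C, had 6.50, 7.40 and 7.17 on T arrays and 6.40, 6.10 and 6.24 on L arrays (difference -0.78, adjusted p = 0.171). Vasn, a surface protein that binds TGF-beta, rose by 1.30 (SE 0.19, adjusted p = 0.025), with 7.93, 8.39 and 8.41 on T arrays and 9.67, 9.30 and 9.64 on L arrays. Antxr1, a collagen-binding receptor that anthrax toxin uses, rose by 1.02 (SE 0.16, adjusted p = 0.0314). Its other probe differed by 1.20 (adjusted p = 0.122 over all probes). Mxra8, an adhesion protein that alphaviruses use for entry, was at least 1.87-fold higher (adjusted p = 0.0463), with 4.61, 5.28 and 5.65 on T arrays and 6.34, 6.95 and 6.96 on L arrays. The other probe of Mxra8, detected on 1 L array, differed by 0.74 (adjusted p = 0.133 over all probes). Tgfbi, a matrix protein induced by TGF-beta, was called at a level near background, with 4.70, 4.66 and 4.98 on T arrays and 5.88, 5.60 and 5.74 on L arrays and detection on 1 L array. The calls were lost without T1, T3, L1 or L3 (adjusted p = 0.0561 to 0.124) for Vasn, lost without T1, T3, L1, L2 or L3 (adjusted p = 0.0645 to 0.143) for Antxr1, lost without T1, T3, L1, L2 or L3 (adjusted p = 0.0549 to 0.143) for Mxra8 and lost without T1, T2, T3, L2 or L3 (adjusted p = 0.0512 to 0.119) for Tgfbi, which could not be tested without L1.

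Fibroblast markers with a probe summed to 419 to 589 on T arrays and 650 to 962 on L arrays, with Col1a1, Col1a2, Col3a1, Lum and Postn not detected. Pdgfra, the receptor for platelet-derived growth factor, had 6.93, 7.62 and 7.76 on T arrays and 8.78, 8.33 and 9.17 on L arrays (difference 1.32, adjusted p = 0.0657). The part of host fibroblasts in the matrix genes was not tested. Among 12 integrin subunits Itgb2 rose and 11 did not pass. Of the 12, 3 were higher and 1 lower at an unadjusted p under 0.05 (8.29% and 6.5% of all genes). Itgb6, an epithelial subunit that activates TGF-beta, had 6.75, 7.66 and 6.19 on T arrays and 7.88, 8.30 and 8.06 on L arrays (difference 1.22, adjusted p = 0.124), and Itgb5 had a difference of 0.73 (adjusted p = 0.108). Of 15 mesenchymal genes and EMT regulators 0 passed, with a median of 0.09, and of 22 keratins and epithelial junction genes 0 passed, with a median of 0.15. Krt19 and Cldn4 had differences of 0.88 (adjusted p = 0.108) and 0.87 (adjusted p = 0.218).

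The milk protein gene Csn3, which encodes kappa-casein, had the lowest p of all. On T1, T2 and T3, Csn3 read 6.63, 7.14 and 7.57, and on L1, L2 and L3 it read 9.22, 9.25 and 9.32. The L arrays lay closer together than the T arrays, and Csn3 rose by 2.15 (SE 0.22, adjusted p = 0.0116), with 2.18 on its other probe. The call was lost without L1 or L3 (adjusted p = 0.0603 to 0.064). Of 9 measured milk protein and lactation genes it alone passed, and 4 were higher at an unadjusted p under 0.05 (8.29% of all genes), with a median of 0.50. Xdh, a component of the milk fat globule, had 4.78, 6.40 and 6.03 on T arrays and 7.56, 6.94 and 7.05 on L arrays (difference 1.44, adjusted p = 0.119), and the mucin Muc1 had 4.61, 5.86 and 5.16 on T arrays and 6.21, 7.09 and 5.76 on L arrays (difference 1.14, adjusted p = 0.205).

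Enzymes of detoxification moved both ways. Cyp1b1, a cytochrome P450 that acts on oestradiol and aromatic hydrocarbons, rose by 2.02 (SE 0.26, adjusted p = 0.0187). For Cyp1b1 the log2 values were 5.68, 5.81 and 6.08 on the T arrays and 7.45, 7.65 and 8.53 on the L arrays, each in the order 1 to 3. L3 was the highest array, and the call was lost without T1, T3, L1 or L3 (adjusted p = 0.0504 to 0.064). Aldh3b1, an aldehyde dehydrogenase, rose by 1.24 (SE 0.19, adjusted p = 0.0314), with 6.52, 6.93 and 6.74 on T arrays and 8.30, 7.70 and 7.90 on L arrays. Its other probes differed by 1.10 and 0.46, and the call was lost without T1, T3, L1 or L3 (adjusted p = 0.0878 to 0.134). Of 13 aldehyde dehydrogenases and ketone body enzymes Aldh3b1 rose and 12 did not pass, with a median of 0.24. At an unadjusted p under 0.05, 5 of the 13 were higher and 0 lower (8.29% and 6.5% of all genes). The mitochondrial folate enzyme Aldh1l2 had a difference of 1.45 (adjusted p = 0.0969). Gsta1, a glutathione transferase, fell in L. The level of Gsta1 was 6.75, 6.88 and 6.54 in T1 to T3 and 5.66, 5.76 and 5.60 in L1 to L3. The difference was -1.05 (SE 0.15, adjusted p = 0.0272), and its other probes differed by -1.06 and -0.70. Gsta2, a near-identical copy that its probes may share, had 5.98, 5.71 and 5.62 on T arrays and 4.85, 5.13 and 4.97 on L arrays (difference -0.78, adjusted p = 0.0699), whereas Gstm1, of another class, had 0.93 (adjusted p = 0.156). The call of Gsta1 was lost without T1, T3, L1, L2 or L3 (adjusted p = 0.0549 to 0.124). Of 28 glutathione and oxidative stress genes Gsta1 fell and 27 did not pass, with a median of 0.07. In this list 5 were higher and 4 lower at an unadjusted p under 0.05 (8.29% and 6.5% of all genes).

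The other genes that fell were Exog, a mitochondrial nuclease, and Slc45a3, a sugar transporter known as prostein. Exog read 6.99, 6.63 and 6.67 across T1 to T3, and 5.53, 5.89 and 5.36 across L1 to L3. Slc45a3 had normalized log2 values of 6.89, 6.79 and 6.93 on T1, T2 and T3 and of 5.61, 5.99 and 5.97 on L1, L2 and L3. Exog fell by 1.17 (SE 0.18, adjusted p = 0.0314), but its other, brighter probe differed by only -0.25 and its groups overlapped. Slc45a3 fell by 1.01 (SE 0.16, adjusted p = 0.0316). The calls were lost without T1, T3, L1 or L3 (adjusted p = 0.08 to 0.15) for Exog and lost without T1, T3, L1, L2 or L3 (adjusted p = 0.0651 to 0.143) for Slc45a3. On the authors' values the differences of Gsta1, Exog and Slc45a3 were -0.35 (adjusted p = 0.0953), -0.38 (adjusted p = 0.0847) and -0.36 (adjusted p = 0.0889). This loss was not particular to the genes that fell, since 22 of all 45 called genes were still called on those values. Among the genes that rose, Piwil4 and Tnfrsf19 lost their call there, at smaller differences of 0.41 and 0.30.

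The remaining called genes had varied roles, and all were higher in L. Piwil4, of the PIWI family that binds small RNAs in the germ line, was at least 1.45-fold higher (adjusted p = 0.0116), with 4.82, 5.13 and 4.74 on T arrays and 6.20, 6.49 and 6.46 on L arrays. Gramd1b, which moves cholesterol from the plasma membrane, rose by 1.35 (SE 0.16, adjusted p = 0.0187), but its other probe, detected on 1 T array, differed by 0.58 with overlap (adjusted p = 0.366 over all probes). Cpq, a carboxypeptidase, was at least 1.45-fold higher (adjusted p = 0.025) and the protease Prss46 at least 1.56-fold (adjusted p = 0.0356). AA467197, also known as Nmes1, rose by 1.998 (SE 0.35, adjusted p = 0.04997). On T1, T2 and T3, AA467197 read 7.50, 8.79 and 7.44, and on L1, L2 and L3 it read 10.38, 9.85 and 9.50. T2 again stood above the other T arrays. The calpain Capn5 rose by 1.69 (SE 0.26, adjusted p = 0.0314) and the Groucho-family gene Tle6 by 1.24 (SE 0.19, adjusted p = 0.0311). Their L and T arrays did not overlap, like those of every called gene. Srr, which makes D-serine, rose by 0.95 (SE 0.15, adjusted p = 0.0316) on the probe used, but its other probes, far brighter, differed by -0.29 and -0.35, so that its direction depends on the probe. Of the other 9, Tmie serves hair cell mechanotransduction and rose by 1.18 (SE 0.18, adjusted p = 0.0314), and the planar polarity gene Prickle1 rose by 1.03 (SE 0.17, adjusted p = 0.0419). Phf11d, a PHD finger gene, rose by 1.20 (SE 0.21, adjusted p = 0.0462), Glipr1 by 1.20 (SE 0.21, adjusted p = 0.04997) and the uncharacterised A430093F15Rik by 0.94 (SE 0.16, adjusted p = 0.0462). The other probe of Phf11d, detected on every L and T array, differed by 0.71 without overlap (adjusted p = 0.226 over all probes). Niban1 and Nol4l were at least 1.16-fold and 1.67-fold higher (adjusted p = 0.0462 and adjusted p = 0.04997). The other probe of Niban1, detected on L arrays alone, differed by 0.66 without overlap (adjusted p = 0.244 over all probes). Arl11, an ARF-like GTPase, and Gng2, a G protein gamma subunit, were called on probes near background, detected on 2 and 1 of the L arrays. Arl11 had 4.70, 4.98 and 4.91 on T arrays and 5.87, 5.58 and 5.81 on L arrays, and Gng2 had 4.62, 4.82 and 4.59 on T arrays and 5.72, 5.46 and 5.45 on L arrays. A brighter probe of Gng2, detected on all 6 arrays, had 7.13, 7.87 and 6.74 on T arrays and 7.83, 8.06 and 7.91 on L arrays, with T2 above L1 and a difference of 0.68 (adjusted p = 0.274 over all probes). All 17 genes of this paragraph lost their call without L1 (adjusted p = 0.064 to 0.476) and without L3 (adjusted p = 0.0646 to 0.143). Piwil4 and Gramd1b kept it in the other 4 such fits.

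Of 32 ribosome biogenesis genes 0 passed, 28 had a negative difference, 8 were lower at an unadjusted p under 0.05 (25%, against 6.5% of all genes) and the median was -0.25. Noc3l, of the large subunit pathway, had 9.14, 8.55 and 8.67 on T arrays and 8.05, 8.49 and 8.05 on L arrays (difference -0.59, adjusted p = 0.223), and Polr1a, the catalytic subunit of RNA polymerase I, had a difference of -0.56 (adjusted p = 0.244). Of 29 cholesterol and fatty acid synthesis genes 0 passed, 20 were negative and 9 positive, with a median of -0.17, where 48.9% of all tested genes were positive. Among these 29, 0 were higher and 3 lower at an unadjusted p under 0.05 (8.29% and 6.5% of all genes). Mvk, mevalonate kinase, had a difference of -0.52 (adjusted p = 0.219). Of 41 cell cycle genes 0 passed, and 1 was higher and 5 lower at an unadjusted p under 0.05 (8.29% and 6.5% of all genes). The median of the cell cycle list was -0.02, against -0.01 over all genes. Of 27 genes of amino acid synthesis and the ATF4 response 0 passed, 24 had a positive difference and the median was 0.40. Of the 27, 7 were higher and 2 lower at an unadjusted p under 0.05, against 8.29% and 6.5% of all genes. The lipoprotein receptor Vldlr had 4.49, 5.52 and 4.75 on T arrays and 6.63, 6.55 and 5.80 on L arrays (difference 1.41, adjusted p = 0.0732), the cystine transporter Slc7a11 a difference of 1.39 (adjusted p = 0.108) and Trib3 of 1.24 (adjusted p = 0.195). The median of this list was 0.53 above the T mean on T2 and 0.10 to 0.66 above it on the L arrays.

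Of 25 immediate early genes 0 passed, and 2 were higher and 6 lower at an unadjusted p under 0.05 (8.29% and 6.5% of all genes). Egr1 had 10.57, 9.06 and 9.30 on T arrays and 8.50, 8.73 and 8.43 on L arrays (difference -1.09, adjusted p = 0.186) and Klf4 had 7.35, 7.27 and 7.22 on T arrays and 8.48, 7.87 and 8.33 on L arrays (difference 0.95, adjusted p = 0.0631). The groups did not overlap for either gene. Of 24 angiogenic and growth factors 0 passed, 7 were higher and 2 lower at an unadjusted p under 0.05 (8.29% and 6.5% of all genes), and Vegfa had 0.85 (adjusted p = 0.0961). Of 12 S100 proteins 0 passed. S100a7a, psoriasin, had the largest negative difference of all tested genes, -1.55 (adjusted p = 0.108), with 9.97, 8.60 and 9.59 on T arrays and 7.59, 8.54 and 7.39 on L arrays. L2 came close to T2.

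Genes singled out in the study for the brain were also read here. Id2, an inhibitor of helix-loop-helix transcription factors, had 8.12, 7.41 and 7.96 on T arrays and 8.23, 8.33 and 8.32 on L arrays (difference 0.46, adjusted p = 0.304), and Aldh3a1 had 4.95, 6.14 and 6.25 on T arrays and 6.13, 6.10 and 6.72 on L arrays (difference 0.54, adjusted p = 0.478). The groups overlapped for Aldh3a1 and lay apart for Id2. Id1 had a difference of 0.63 (adjusted p = 0.177), Id3 of -0.06 (adjusted p = 0.926), Bdh2 of 1.01 (adjusted p = 0.0987), Uap1l1 of 0.24 (adjusted p = 0.614) and Gpnmb of -0.29 (adjusted p = 0.712). None passed, and a p that misses the threshold does not show equal levels.

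Brain-derived arrays, which share the T arrays as their comparison, were set beside the 42 genes higher in L. The 42 were chosen partly for low values on those T arrays and high values on the L arrays, so the counts are a description. The B mean was above the T mean in 39 of them (46.8% of all tested genes) and above the L mean in 16 (47.1%), and all 4 B arrays lay above all T arrays in 16 (14.1%). In a fit of B and T alone 14 were higher in B (7.52% of the genes in that fit) and 1 lower (6.9%). Among the 42, P2ry6, Slc15a3, Acod1, Mmp9, Cmpk2, Prss46, Niban1 and A430093F15Rik had every B array below every L array. How often all B arrays lie below or above all L arrays over all tested genes was not counted. Mmp9 was at 8.15, 6.40, 8.98 and 5.996 on B1 to B4 and Acod1 at 6.18, 5.94, 4.75 and 4.82 on B1 to B4. Prss46 and A430093F15Rik were not detected on any B array, and A430093F15Rik was lower in B than in T by 0.97. Conversely, Tnfrsf19, Tmie, Antxr1 and Vasn had every B array above every L array, with Antxr1 at 8.32, 8.42, 9.26 and 8.51 on B1 to B4. Tgm2 was at 11.04, 10.74, 12.01 and 10.91 on B1 to B4 and Csn3 at 10.52, 10.88, 6.73 and 8.60 on B1 to B4, so that B3 lay below 2 of the T arrays for Csn3. Among the lower genes, Gsta1 was at 4.86, 7.59, 4.55 and 4.85 on B1 to B4, and B2 alone lay above the T arrays. Acute-phase genes did not share 1 order, with Lcn2 at 8.03, 12.25, 7.09 and 8.59 on B1 to B4 and Slpi at 13.97, 13.07, 14.34 and 13.96 on B1 to B4.

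**Figure D5:**
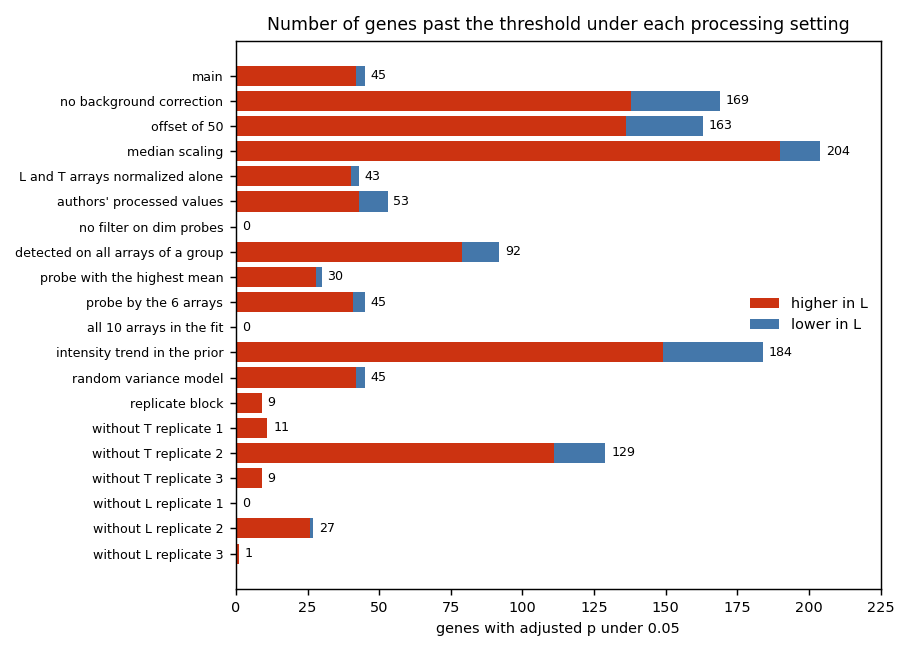
Number of genes with an adjusted p under 0.05 (horizontal axis) under each processing setting, split into higher in L (red) and lower in L (blue), with the total beside each bar. The count was 45 as reported, and ranged from 0 without the filter on dim probes, with all 10 arrays in the fit or without L1, to 204 with median scaling.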

How the data were processed

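The mouse whole-genome bead arrays (Illumina MouseWG-6 v2.0) held RNA of 3 T, 3 L and 4 B sublines. The authors extracted the intensity values with GenomeStudio, and they were deposited as probe intensities with the background still in them, with a detection p-value per probe deposited beside each. The authors also deposited a processed table on a scale close to log2, made with lumi by variance-stabilizing transformation and robust spline normalization after leaving out undetected probes. The versions of these tools were not given in the sources used here.

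Intensities of all 10 arrays were background-corrected by detection p-values and quantile-normalized with neqc of limma 3.58.1 in R 4.3.3 at an offset of 16, which gives log2 values compressed near background. A probe counted as detected at a detection p up to 0.01. Of 16294 probes that any L or T array detected, 14017 had 1 gene symbol, updated through RefSeq (GRCm38.p6), 7 had several and 2270 none. Where a gene had several such probes (3444 genes), the one that varied most across the 10 arrays, by interquartile range, stood for it. L and T were compared with limma's moderated test on 6 arrays, two-sided, with Benjamini-Hochberg adjustment over all 8974 genes. The number of arrays limits the precision, and p-values measure the spread between these sublines only. Replicate numbers did not pair the arrays: deviations from the group means correlated at -0.12, -0.02 and 0.09 for the same number. The slide of each array was not given, so it could not be tested.

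Genes named were the called genes, up to 4 further genes of largest difference per list, and those of the study's text. Lists, members and tests were chosen with earlier results of these data known, and lists got no test. Summed marker levels are sums of 2 raised to the log2 value over genes with a probe, detected or not, so they include background. Alternatives covered background, scaling, filter, probe choice, test and each array left out. The limma script was tested on simulated data. Shares of promoter motifs among called genes are not reported here.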

Additional observations from a re-analysis of the deposited data

Results flagged for a closer look

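Only the 4 B arrays form a group large enough for a check of single arrays, and among 111 genes 9 had 1 array far from the other 3, where chance alone sets about 1 in 20 apart. B2 was the array in 7 of the 9. It was high for Gsta1 (7.59, against 4.55 to 4.86), Gsta2 (6.31, against 4.54 to 4.70), Slc45a3 (7.05, against 5.87 to 5.99), Il1a (8.26, against 4.61 to 5.05) and Lyz1 (5.23, against 4.45 to 4.57). It was low for Phf11d (7.34, against 7.90 to 7.96) and Glipr1 (6.29, against 8.35 to 8.72). B4 was low for Il33, at 5.01 against 7.06 to 7.41, and B3 high for Pdgfra, at 11.43 against 9.16 to 9.42. Values are normalized log2 intensities. The dimmest detected probes read 5.74, 5.70, 5.73 and 5.56 on B1 to B4. All B values of Lyz1, the lower 3 of Gsta1, Gsta2 and Il1a and the B4 value of Il33 lay below these, at background. Genes do not vary independently, and the probes of Gsta1 and Gsta2 may be shared, so the 9 are a description.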

How the results depend on the processing

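The number of called genes moved with the processing more than their direction did. Against 45, it was 169 without background correction, 163 at an offset of 50, 204 with median scaling, 92 with detection required on all arrays of a group and 184 with an intensity trend in the prior. It was 0 when dim probes were kept (unadjusted p under 0.05 for 2049 genes, lowest adjusted p 0.0914) and 0 with all 10 arrays in the limma fit (872 genes, lowest adjusted p 0.123). The other settings, apart from the block and the left-out arrays, gave 30 to 53. Of the 45, 42 to 44 were still called under the first 5 settings and 22 on the authors' values. At an unadjusted p under 0.001, 110 genes became 169, 168, 195, 183 and 38 without background correction, at the offset of 50, with median scaling, with the trend and with all 10 arrays. Leaving out 1 array gave 0 (without L1) to 129 (without T2) called genes, and 45 to 158 at an unadjusted p under 0.001. The replicate numbers do not pair the arrays, and the replicate block gave 9 called genes, all of them among the 45, and 81 at an unadjusted p under 0.001.

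Directions turned for few named genes. Srr was -0.32 on the authors' values and -0.29 on its brightest probe, in both cases because that brighter probe took the place of the one used, for which the authors' values gave 0.48. Id3 was 0.07 without T1 and 0.13 without L3, in a range over the left-out arrays of -0.22 to 0.13. Gpnmb was 0.31 without background correction, 0.32 at the offset of 50, 0.28 on the authors' values and 0.33 both with detection on all arrays of a group and with the brightest probe, in each case on another of its probes. The median of the prostaglandin list was 0.0487 without the filter, over 16 genes in place of 4. The cause of the changes in Id3 was not tested. Signal over background limits genes not detected in T, whose log2 differences shrink with the offset.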
